A study of Mus musculus with 6 samples.

Results

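The MYC and MAX network was described here as 10 genes of basic helix-loop-helix leucine zipper proteins: Myc, Mycn, Mycl, Max, Mxd1, Mxd3, Mxd4, Mxi1, Mnt and Mga. They were chosen by name, and every array probe whose transcript belongs to a member was taken, which gave 12 of the 39429 gene probes on the array. Of the 10 members, 9 passed the filter on dim probes and were tested, with 11 probes. The single Mxi1 probe stayed within background on all arrays, and it has no test.

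The soma group holds 3 samples of gonadal somatic cells from male E13.5 embryos (E counts days of embryonic development), of the background MCH x C57BL6/J with the transgene written as Oct5<delta>PE-GFP Tg. The ESC group is the male line VR15 of embryonic stem cells, which carries the reporter transgene Vasa::RFP Tg, in 3 samples. Each sample was hybridised to its own 1-colour Agilent array from 100 ng of total RNA, and the design text calls the samples of a group biological replicates. ESC is a single cell line, and soma is a tissue fraction that still held blood, vessel and germ cell transcripts, as given below.

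All MYC proteins work as pairs with MAX. MYC, MYCN and MYCL bind the E-box CACGTG with MAX and activate genes for growth, nucleotide synthesis and ribosome assembly. The MXD proteins, MXI1 and MNT compete for MAX and for the same site and bring the SIN3 and histone deacetylase corepressor. MGA, a very large MAX partner that also carries a T-box, sits in the polycomb complex PRC1.6. In mouse ESC, MYC and MYCN support self-renewal, and MAX with MGA keeps germ cell genes low.

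The MYC genes and the MXD genes stood on opposite sides, and the repressor gene Mnt was on the side of the MYC genes. In soma, all 3 MYC genes were lower than in ESC, Mycn by 10.5-fold, Myc by 2.37-fold and Mycl by 2.34-fold, and their partner Max was 1.65-fold lower. The tested MXD genes were all higher in soma, Mxd1 by 6.21-fold, Mxd4 by 5.06-fold and Mxd3 by 1.5-fold. The large MAX partners Mnt and Mga were lower in soma, by 1.69-fold and 1.88-fold. All 9 tested members passed the threshold (limma, adjusted p under 0.05), 6 of them lower and 3 higher in soma. Among all 19670 tested genes 84.9% passed, 46.6% lower and 38.3% higher in soma, so the number of members called is close to that of any gene. At least 2-fold differences were found for 5 of 9 members, 3 lower and 2 higher, beside 47.5% of all genes, 24.2% lower and 23.2% higher. The groups did not overlap for any of the 9, as for 87.2% of all genes. Their median difference was -0.76 on the log2 scale, soma minus ESC, beside -0.14 for all tested genes.

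The regions around the starts of the genes are shown for Mycn, the member with the greatest difference among the brightest probes, and for the 3 members whose own window holds the network's E-box. They are RefSeq sequences of build GRCm38.p6, from 250 bases before to 50 bases after the start point that the promoter table gives, on the strand of the gene and 5' to 3'. That point is the 5' end of the annotated gene for Mycn and Mxd4, and lies 75 bases inside the annotated gene for Max and 118 bases inside it for Mnt. Of the 10 members, 9 have such an entry, and Mxi1 has several. Myc has none, so no window of Myc was searched. Capitals mark TTTGGCGC, a form of the E2F site, in Mycn, and CACGTG in the other 3; both strands were searched.
Mycn (chr12:12941787-12942086, minus strand): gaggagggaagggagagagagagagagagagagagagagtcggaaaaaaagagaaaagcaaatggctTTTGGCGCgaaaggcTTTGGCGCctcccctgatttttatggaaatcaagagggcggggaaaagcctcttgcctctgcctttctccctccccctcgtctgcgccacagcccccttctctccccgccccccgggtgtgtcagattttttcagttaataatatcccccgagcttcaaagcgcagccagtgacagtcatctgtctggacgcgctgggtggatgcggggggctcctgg
Max (chr12:76962199-76962498, minus strand): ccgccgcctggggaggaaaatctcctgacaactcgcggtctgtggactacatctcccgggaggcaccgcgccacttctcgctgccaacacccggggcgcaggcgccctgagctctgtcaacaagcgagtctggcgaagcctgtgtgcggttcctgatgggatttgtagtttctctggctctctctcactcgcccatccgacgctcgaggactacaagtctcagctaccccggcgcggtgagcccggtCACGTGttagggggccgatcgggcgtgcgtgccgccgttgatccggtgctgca
Mxd4 (chr5:34187661-34187960, minus strand): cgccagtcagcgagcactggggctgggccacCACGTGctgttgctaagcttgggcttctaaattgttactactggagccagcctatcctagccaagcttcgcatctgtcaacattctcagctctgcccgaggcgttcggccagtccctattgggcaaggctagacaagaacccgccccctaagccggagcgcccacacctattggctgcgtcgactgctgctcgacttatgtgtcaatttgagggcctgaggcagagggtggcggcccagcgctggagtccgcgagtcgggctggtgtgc
Mnt (chr11:74830674-74830973, plus strand): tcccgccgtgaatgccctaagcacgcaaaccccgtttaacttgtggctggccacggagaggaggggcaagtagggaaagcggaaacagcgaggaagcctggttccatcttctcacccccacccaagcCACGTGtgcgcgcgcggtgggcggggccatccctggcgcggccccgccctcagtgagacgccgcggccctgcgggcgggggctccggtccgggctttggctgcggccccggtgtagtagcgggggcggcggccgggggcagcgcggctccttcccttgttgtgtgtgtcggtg
CACGTG is a palindrome and begins 3 bases before the start point of Max, 123 before that of Mnt and 219 before that of Mxd4. It is present in 7.15% of the 32851 promoter windows of the same length. The Mycn window holds TTTGGCGC at 183 and 168 bases before its start point, which 0.51% of windows hold at least once, and these sites overlap no E-box. The GC box GGGCGG was found in 10 of the 11 member windows, beside 35.66% of all windows, and the Max window was without it. These 11 windows come from 9 members, and some of the Mxi1 windows overlap each other. The start point of the Mga window lies 24725 bases inside the annotated gene. Start points of Mxi1 windows lie as far as 19285 and 19567 bases inside it. The 3 genes with the E-box did not move one way, since Max and Mnt were lower and Mxd4 was higher in soma. A match describes letters in the window and is not a measured binding site.

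**Figure D1:**
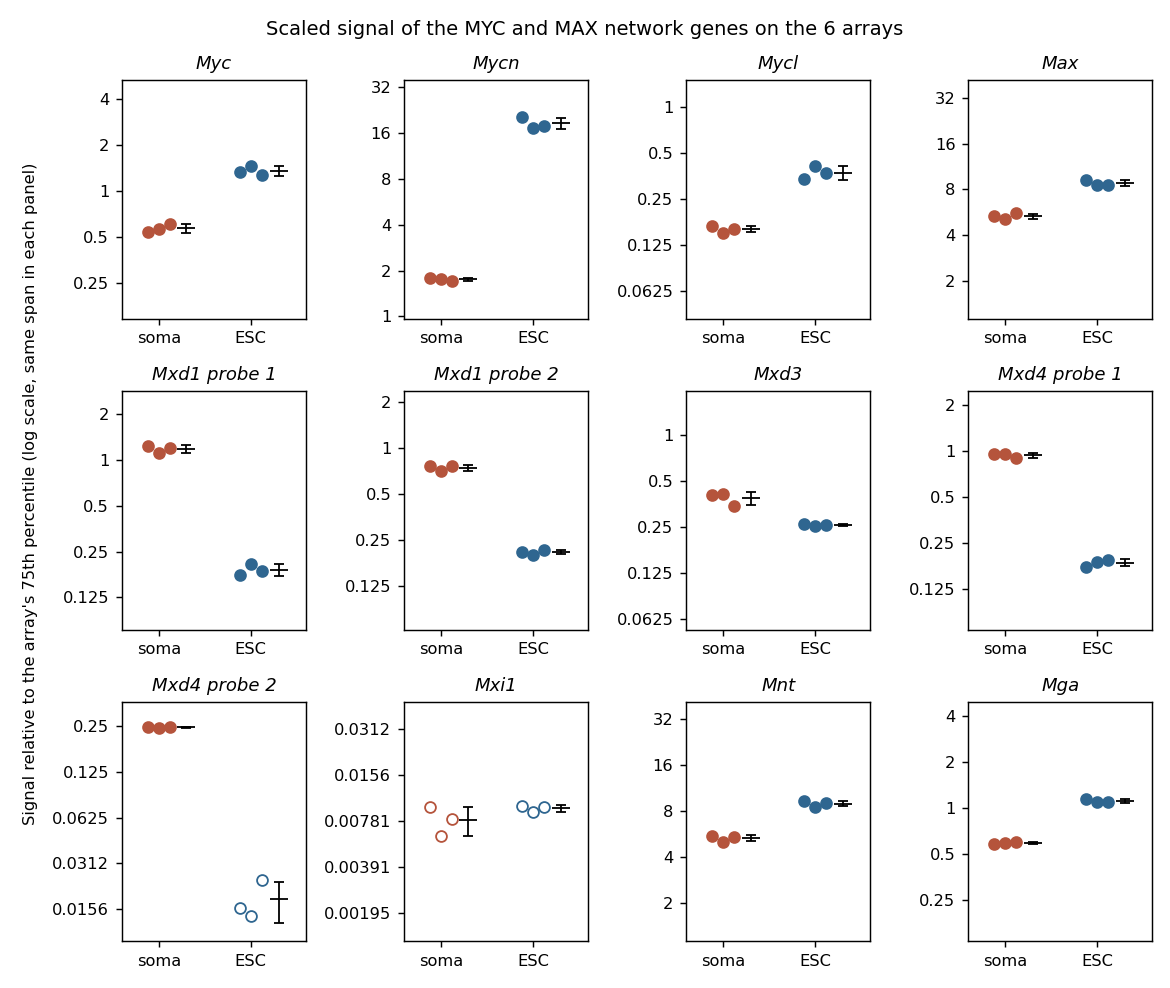
Signal of each member probe on each array, as a multiple of the array's 75th percentile, on a log axis with the same span in every panel. Points are arrays, soma left and ESC right, open points mark groups in which no array was well above background, and the bar beside each group gives mean and SD (n = 3). Except for Mxi1, the soma and ESC points are apart in every panel.

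Values are given as scaled signal, the processed signal divided by the 75th percentile of the gene probes on the same array, so that 1 is the brightness of that percentile. Mycn (probe A_52_P536494), the MYC gene known for its role in embryonic progenitors and in neuroblastoma, had 1.79, 1.77 and 1.71 in soma, against 20.2, 17.2 and 17.8 in ESC. Every soma array lay far under every ESC array. The means were 1.76 ± 0.0448 in soma and 18.4 ± 1.58 in ESC (SD, n = 3 each). The log2 difference was -3.39 ± 0.07 (SE; limma adjusted p 4.22e-07), and 90.1% of all tested probes had a difference no greater in size.

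Myc (probe A_52_P108346), the founding member of the family, had 0.536, 0.561 and 0.608 in soma, against 1.33, 1.46 and 1.27 in ESC. The log2 difference was -1.25 ± 0.08 (SE; limma adjusted p 1.72e-05). Mycl (probe A_55_P1972025), which was first found as a gene amplified in lung cancer, had 0.165, 0.150 and 0.159 in soma, against 0.335, 0.410 and 0.367 in ESC. Its log2 difference was -1.23 ± 0.09 (SE; limma adjusted p 3.04e-05). Both genes had non-overlapping groups, and their differences lay within an SE of each other. The drop of Mycn was thus far greater than that of either.

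Max (probe A_55_P1962801), the shared partner of every other member, had 5.33, 5.14 and 5.57 in soma, against 9.30, 8.55 and 8.59 in ESC. The groups were apart, and the log2 difference was -0.72 ± 0.06 (SE; limma adjusted p 6.40e-05). It was -0.39 under quantile normalization, where it still passed. Relative to the median of all tested probes it was -0.58, or -0.35 under quantile normalization.

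The MXD genes encode small repressors that rise as many cell types stop dividing and differentiate. Mxd1 (probe A_51_P490795) had 1.23, 1.11 and 1.20 in soma, against 0.175, 0.208 and 0.187 in ESC, a log2 difference of 2.64 ± 0.08 (SE; limma adjusted p 1.19e-06). The other Mxd1 probe, A_55_P2025248, had 0.765, 0.708 and 0.766 in soma, against 0.211, 0.201 and 0.214 in ESC. Its difference was 1.84 ± 0.06 (SE; limma adjusted p 1.14e-06), so both probes were higher in soma by different amounts.

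Mxd4 (probe A_55_P2117928) had 0.961, 0.958 and 0.905 in soma, against 0.176, 0.189 and 0.194 in ESC, a log2 difference of 2.34 ± 0.06 (SE; limma adjusted p 6.47e-07). Its dimmer probe, A_55_P2172121, had 0.244, 0.240 and 0.245 in soma and was not well above background on any ESC array, where it read 0.0160, 0.0142 and 0.0245. By that probe Mxd4 was at least 8.55-fold higher in soma (limma adjusted p 8.73e-06). The bound uses as the ESC level, array by array, the dimmest signal that counted as well above background, or the value of the probe where that was higher.

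Mxd3 (probe A_52_P190647), an MXD gene that differs from the others in being expressed in cycling cells during S phase, had 0.406, 0.410 and 0.346 in soma, against 0.262, 0.253 and 0.257 in ESC. The log2 difference was 0.59 ± 0.08 (SE; limma adjusted p 0.000654). One soma array, replicate 3, lay nearer to ESC than the other soma arrays, and the groups did not overlap. The difference was 0.39 with arrays scaled to their median and 0.43 against soma replicate 3 alone, and it passed in both. Relative to the median of all probes it was 0.73, or 0.48 under quantile normalization.

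The Mxi1 probe read 0.00961, 0.00620 and 0.00804 in soma, against 0.00975, 0.00893 and 0.00972 in ESC, and the groups overlapped. It was not well above background anywhere, so no fold is given. The MXD branch is therefore described by 3 of its 4 genes.

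Mnt (probe A_52_P477431), a widely expressed repressor that is the main antagonist of MYC in dividing cells, had 5.51, 5.04 and 5.37 in soma, against 9.29, 8.57 and 9.03 in ESC. The log2 difference was -0.76 ± 0.06 (SE; limma adjusted p 4.99e-05). It was -0.43 under quantile normalization and passed there. Relative to the median of all probes these values were -0.61 and -0.39.

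Mga (probe A_55_P2452384) had 0.584, 0.587 and 0.596 in soma, against 1.14, 1.09 and 1.10 in ESC, with a narrow spread in both groups. The log2 difference was -0.91 ± 0.05 (SE; limma adjusted p 7.00e-06). In order of difference, Mycn was lowest in soma, followed by Myc and Mycl, then Mga, Mnt and Max, then Mxd3, Mxd4 and Mxd1, by the brightest probe of each gene. With probes averaged Mxd4, at 3.06, stood above Mxd1, at 2.24. Mnt and Max differed by less than an SE, as did Myc and Mycl.

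**Figure D2:**
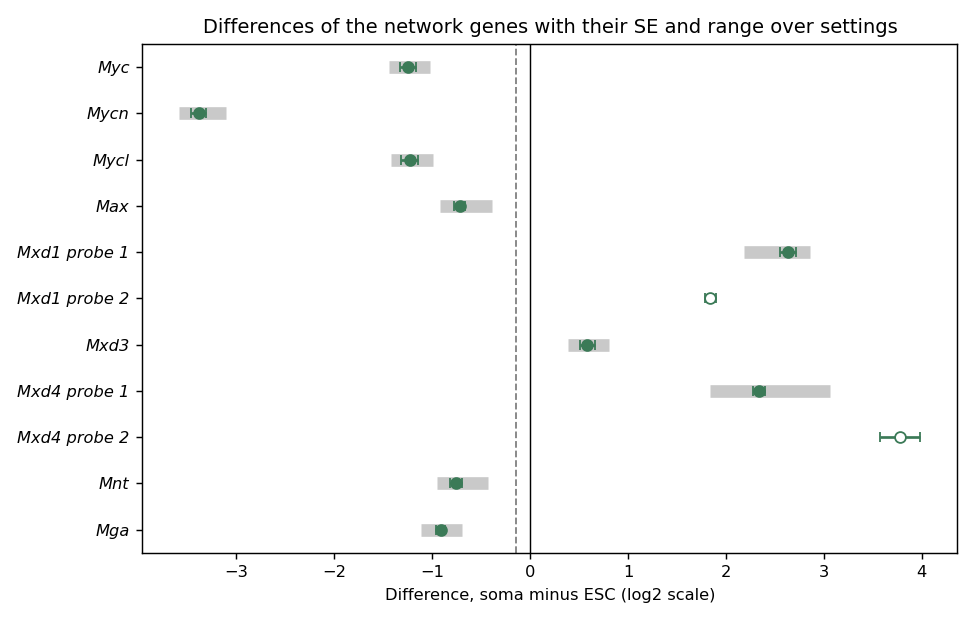
Log2 difference, soma minus ESC, of each tested member probe with its SE. Filled points are the brightest probe of a gene, open points a further probe of it (that of Mxd4 rests on ESC signal within background), grey bars span the values over 20 other settings, and the dashed line is the median of all tested genes (-0.14). The bars of Mycn, Myc, Mycl, Max, Mnt and Mga stay left of 0 and those of Mxd1, Mxd3 and Mxd4 right of it.

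Of the 2 slides, one carried soma replicates 1 and 2, and the other carried soma replicate 3 beside the 3 ESC arrays. Soma and ESC were never read in the same scan, and the effects of scan and group cannot be told apart. Within the slide that holds both groups, soma replicate 3 stood from the ESC mean by -3.43 for Mycn, -1.15 for Myc, -1.22 for Mycl and -0.66 for Max. It stood by 2.66 for Mxd1, 2.28 for Mxd4, 0.43 for Mxd3, -0.74 for Mnt and -0.90 for Mga. All 9 members passed there and with the slide as a fixed block, which gives the same differences; both rest on 1 soma array (n = 1), assumed to vary as the others do.

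**Figure D3:**
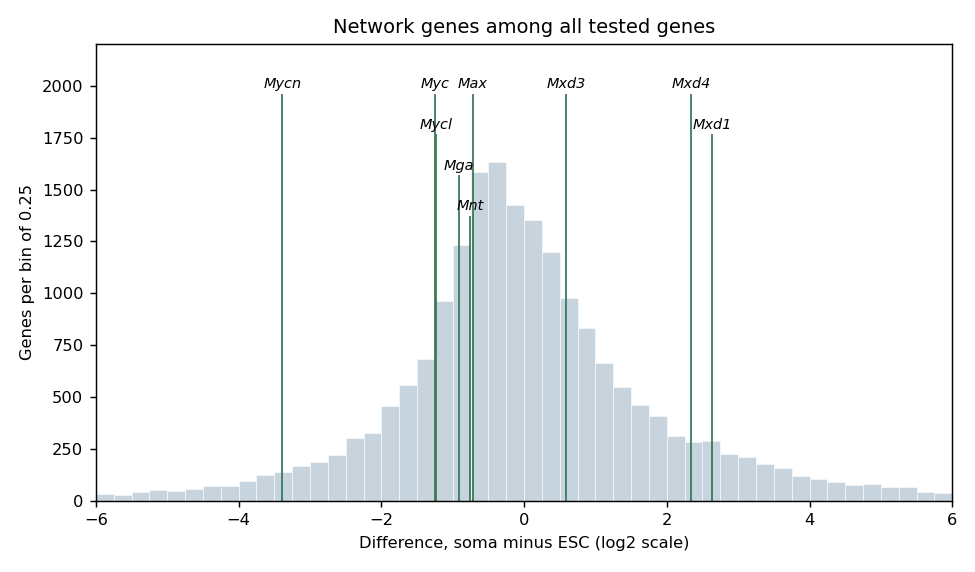
Histogram of the log2 difference, soma minus ESC, of all 19670 tested genes in bins of 0.25, with green lines at the 9 tested members. The 403 genes beyond 6 in either direction are not drawn. Mycn lies in the left tail, Mxd1 and Mxd4 lie to the right, and Max, Mnt and Mxd3 lie near the bulk of genes.

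The labels were set against cell type markers. In soma all 8 pluripotency markers were lower (summed scaled signal 2.03 to 3.70 in soma and 180.2 to 211 in ESC), and Fgf4 was not well above background on any soma array. All 8 Sertoli, 4 of 4 tested fetal Leydig and 6 of 6 interstitial markers were higher in soma. Red cell transcripts were abundant there, with 5 of 5 tested markers higher and sums of 613 to 653 in soma and 0.161 to 0.177 in ESC. All 4 tested macrophage markers and 3 of 5 endothelial markers were also higher, 1 endothelial marker was lower and 1 did not pass. The endothelial sums overlapped, with 4.65 to 6.57 in soma and 4.87 to 5.30 in ESC. Of 6 germ cell markers 2 were higher and 2 were lower in soma, with sums of 4.22 to 8.65 in soma and 7.05 to 7.90 in ESC. Nanos2 was not well above background on any ESC array. The part of these cell types in the members' values was not tested, and in such bulk samples fewer cells of a type and less RNA per cell cannot be told apart.

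Genes that work with the network were described from lists that were drawn up with earlier results of these data known, so their counts are descriptions. Every gene named below with a fold passed the threshold (limma, adjusted p under 0.05). A gene is represented by its brightest kept probe. Among relatives outside the 10 members, 4 of 5 were tested. In soma 2 were lower and 2 higher, beside 46.6% lower and 38.3% higher of all genes. Mlxipl, the glucose-responsive factor ChREBP, was 3.21-fold lower in soma (log2 difference -1.68 ± 0.21, SE), with 0.242 ± 0.0604 in soma and 0.761 ± 0.0795 in ESC (SD, n = 3 each). Mlx, the MAX-like partner of the MONDO proteins, was 2.12-fold lower. Bmyc, a rodent relative of Myc that lacks the DNA-binding part, was 3.21-fold higher, with 3.75 ± 0.326 in soma and 1.17 ± 0.0896 in ESC (SD, n = 3 each). Mlxip, the gene of MondoA, was 1.20-fold higher, and it did not pass under quantile normalization, array median scaling or within the shared slide.

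Coactivator genes were mostly lower in soma. Of 15 tested MYC cofactor genes 11 were lower, 2 higher and 2 did not pass, beside 46.6% lower and 38.3% higher of all genes. Their median was -0.47. Under quantile normalization 5 were higher and 10 lower, with a median of -0.29. Scaled to the spike-in probes, 4 were higher and 8 lower, with a median of -0.25. Ruvbl2, whose ATPase works in chromatin complexes with MYC, was 4.92-fold lower, with 6.49 ± 0.0667 in soma and 31.9 ± 0.897 in ESC (SD, n = 3 each). Actl6a, an actin-like subunit of the same complexes, was 3.61-fold lower. Trrap, the large scaffold that MYC contacts directly, went the other way and was 2.40-fold higher, with 3.79 ± 0.0883 in soma and 1.58 ± 0.0631 in ESC (SD, n = 3 each). Ep400, a chromatin remodeller, was 1.26-fold higher and did not pass with arrays scaled to their median.

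The corepressor genes that serve MXD proteins and MNT were mixed. Of 18 tested genes 9 were lower in soma, 6 higher and 3 did not pass, beside 46.6% lower and 38.3% higher of all genes. The list median was -0.23, and 0.07 under quantile normalization. Scaled to the spike-in probes, 5 were lower and 8 higher. Sap30, a subunit of the SIN3 complex, was 8.51-fold lower, with 0.310 ± 0.00222 in soma and 2.64 ± 0.183 in ESC (SD, n = 3 each). Sin3a, the scaffold that the MXD proteins bind, was 3.36-fold lower. Arid4b, a SIN3-associated gene, was 1.81-fold higher.

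PRC1.6 partners of MGA and MAX moved in both directions. Of 9 tested genes 5 were lower and 4 higher in soma, beside 46.6% lower and 38.3% higher of all genes. Under quantile normalization 4 were lower and 5 higher, and with arrays scaled to their median 5 were lower and 3 higher. The list median was -0.41, or 0.20 under quantile normalization. L3mbtl2, a subunit found in this form of the complex, was 9.42-fold lower, with 0.113 ± 0.00625 in soma and 1.07 ± 0.0912 in ESC (SD, n = 3 each). Its log2 difference was -3.24, or -2.62 under normexp background correction. Pcgf6, another such subunit, was 6.57-fold lower, with 0.621 ± 0.0506 in soma and 4.07 ± 0.183 in ESC (SD, n = 3 each). Yaf2, whose protein is shared with other polycomb complexes, was 2.69-fold higher and the ubiquitin ligase gene Ring1 was 1.91-fold higher. E2f6, a DNA-binding factor of the same complex, was 1.85-fold higher.

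Germ cell genes that MAX and MGA hold down in mouse ESC did not move together. Of 13 tested genes 6 were lower in soma, 2 higher and 5 did not pass, beside 46.6% lower and 38.3% higher of all genes. The list had a median of -0.59, which was -0.30 without soma replicate 1 and -0.25 with soma replicate 3 alone set against ESC. Sycp3, which builds the axes of meiotic chromosomes, was 42.1-fold lower in soma, with 0.165 ± 0.0835 in soma and 6.36 ± 0.270 in ESC (SD, n = 3 each). Its log2 difference was -5.40, or -4.63 with the slide as a fixed block. Smc1b, a meiotic cohesin gene, was 8.31-fold lower. Dazl, an RNA-binding protein of germ cells, was 4.16-fold higher in soma, with 0.427, 0.622 and 0.856 in soma, against 0.161, 0.137 and 0.143 in ESC. Zcwpw1 was 1.22-fold higher, a call lost under 5 of 20 other settings. Each of the 6 germ cell markers was lowest on soma replicate 1 and highest on soma replicate 3, and Ddx4 read 0.485, 0.769 and 1.06 in soma, against 0.853, 0.754 and 0.810 in ESC; the part of germ cells in these values was not tested.

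Of 15 tested genes that set how long MYC protein lasts, 9 were lower in soma, 2 were higher and 4 did not pass, beside 46.6% lower and 38.3% higher of all genes. The median was -0.39, or -0.17 when scaled to the spike-in probes and -0.22 with probes averaged. Set, an inhibitor of the phosphatase that acts on MYC, was 5.24-fold lower, with 11.7 ± 0.744 in soma and 61.3 ± 2.71 in ESC (SD, n = 3 each). Usp28, a deubiquitinase that stabilises MYC, was 4.01-fold lower. Gsk3b, the kinase that marks MYC for degradation, was 2.49-fold higher, with 8.36 ± 0.243 in soma and 3.36 ± 0.154 in ESC (SD, n = 3 each). Trpc4ap, which links MYC to a ubiquitin ligase, was 1.75-fold higher, at 0.81 on the log2 scale with 75th percentile scaling and 1.33 under quantile normalization.

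Genes that MYC activates were lower in soma with a single exception. Of 30 tested genes 29 were lower and 1 was higher, beside 46.6% lower and 38.3% higher of all genes. By at least 2-fold 23 were lower, beside 24.2% of all genes. The median was -1.68, or -1.53 relative to all probes, and under quantile normalization it was -1.32 with 27 lower and 2 higher. The transferrin receptor gene Tfrc was 9.95-fold lower, with 0.391 ± 0.0143 in soma and 3.89 ± 0.187 in ESC (SD, n = 3 each). Gart, an enzyme of purine synthesis, was 8.01-fold lower, with 0.914 ± 0.0322 in soma and 7.33 ± 0.439 in ESC (SD, n = 3 each). The exception was the cyclin gene Ccnd2, which was 4.78-fold higher in soma, with 6.57 ± 0.195 in soma and 1.38 ± 0.0706 in ESC (SD, n = 3 each).

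Genes that MYC represses showed no common direction. Of 9 tested genes 4 were higher in soma, 4 lower and 1 did not pass, beside 38.3% higher and 46.6% lower of all genes. With arrays scaled to their median 3 were higher and 5 lower, and without a filter on dim probes 3 were higher and 4 lower. Their median of -0.16 was close to that of all genes, and it was -0.06 without soma replicate 2, -0.26 without soma replicate 3 and -0.10 without ESC replicate 2. The 3 cell cycle inhibitors of the list were split, and Cdkn1b, the p27 gene, was 1.19-fold higher in soma. Cdkn1a, the p21 gene, was 21.6-fold lower, with 0.131 ± 0.00768 in soma and 2.82 ± 0.169 in ESC (SD, n = 3 each), at -4.43 on the log2 scale, or -3.76 with its probes averaged. Cdkn2b, the p15 gene, was at least 11.9-fold lower, since it was not well above background on any soma array. Its log2 difference fell short of that bound under normexp background correction, at -2.14. Pdgfrb, a receptor gene of stromal cells, was 48.5-fold higher and Gas1, a growth arrest gene, was 15.2-fold higher. With its probes averaged Gas1 stood at 2.06 on the log2 scale, against 3.93 for the brightest. All 6 interstitial markers were higher in soma too, and their part in these values was not tested.

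**Figure D4:**
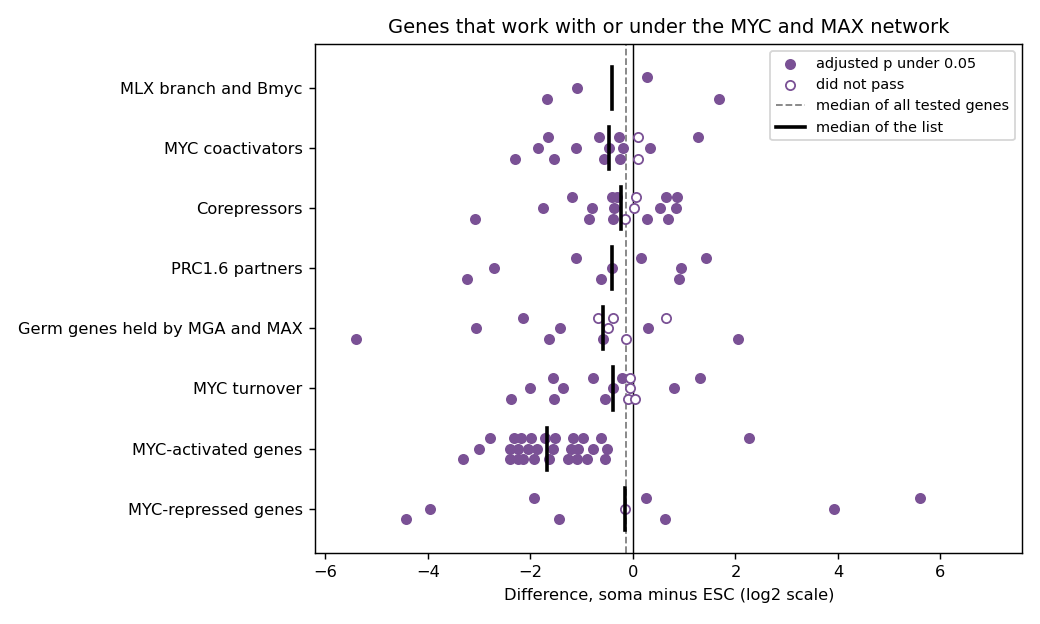
Log2 difference, soma minus ESC, of every tested gene in 8 lists of genes tied to the network. Filled points passed the threshold, open points did not, black bars are list medians and the dashed line is the median of all tested genes. The MYC-activated genes lie left of 0 with 1 exception, while every other list spreads over both sides.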

How the data were processed

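Gene expression was measured on 6 Agilent 1-colour arrays, 3 of soma and 3 of ESC. The authors read the arrays with Feature Extraction (10.7.3.1 per the file headers), whose processed signal is an intensity after background subtraction and spatial detrending, not scaled across arrays. A deposited value table holds log2 values, and its scale, centring and direction are not stated. At least 99.96% of 39429 probes lay within 0.01 of the log2 processed signal less the array's 75th percentile and the probe's median over the 6 arrays. Its direction is thus that of the signal. The columns had medians of 0.0550, -0.250 and -0.0654 in soma replicates 1 to 3, against 0.161, -0.0879 and 0.0634 in ESC replicates 1 to 3; the table served as an alternative.

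The log2 processed signal was scaled to the array's 75th percentile over gene probes, spots of 1 probe were averaged, and 1377 control spots and 15 probe values with an outlier mark were left out, none of them of a member. Probes entered the tests if well above background on every array of soma, of ESC or of both (24150 probes, 19670 genes by their brightest probe). RefSeq transcripts of GRCm38.p6 named 66.1% of gene probes. A probe without a gene name was counted under its own transcript, so the 19670 genes include unnamed transcripts. The array grid is of an earlier build. Gene coordinates were used only for the promoter windows and for the place of their start points in the annotated genes. Differences are soma minus ESC, fitted per probe with limma 3.58.1 in R 4.3.3 (lmFit and eBayes, two-sided), with Benjamini-Hochberg adjustment over all kept probes and a threshold of 0.05.

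The share of gene probes well above background was 56.0% to 63.2% per array, no gene spot was saturated, and the number of arrays limits the precision. Pearson's r across kept probes ranged from 0.993 to 0.995 for arrays of the same group and from 0.789 to 0.802 for a soma and an ESC array. The fit was tested on simulated data. Named genes are all members and, in each list, the 2 with the greatest difference in each direction among those past the threshold; 1 such gene is not reported here. E2f6, Cdkn1b and Ddx4 were named after their values were seen. The members and lists were chosen with earlier results of these data known. Alternatives covered the normalization, background correction (normexp with an offset of 50, on the median signal), source of values, filter, handling of several probes, variance model, slide, scan, replicate number and each array left out in turn. Mean signals were not used here.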

Additional observations from a re-analysis of the deposited data

How the results depend on the processing

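All 9 tested members kept their direction and passed the threshold under all 20 alternatives, with adjusted p of at most 0.0105 (limma, Mxd3), and 4 to 6 of them differed by at least 2-fold. These alternatives are not independent, since several keep the difference of a gene as it is and change only its adjusted p. The difference of Myc was -1.25 with the strictest filter, without a filter, with the other variance model and with the replicate block. Over all probes the number past the threshold was 20465, and 16565 to 21717 under the alternatives, fewest with the strictest filter on dim probes. The replicate block gave 20136 probes and 9 members, and changed no member's call; deviations from the group means correlated by -0.04 to 0.06 between same-numbered samples, so the numbers were not taken to pair them. Scaling shifted the median of all probes, by 0.11 (quantile), -0.20 (array median) and 0.22 (spike-in probes). The corepressor and PRC1.6 medians changed sign under quantile normalization, to 0.0748 and 0.20. The median of MYC-repressed genes changed sign to 0.0627 under spike-in scaling, to 0.0450 with the strictest filter (well above background on all 6 arrays), and to 0.0514 both with the slide as a fixed block and on the slide that holds both groups alone; the cause was not tested. Over all 8 lists 23 genes were higher and 75 lower in soma, and 17 to 30 and 65 to 81 under the alternatives. Under quantile normalization 5 coactivator genes were higher, against 2, and 4 turnover genes, against 2. Scaled to the spike-in probes, the medians were -0.19 for relatives, -0.25 for coactivators, -0.0129 for corepressors, -0.18 for PRC1.6 and -0.37 for germ cell genes. Scaled to the array median they were -0.43 for corepressors and -0.35 for MYC-repressed genes, and with probes averaged -0.0670 for corepressors. Scan as a random block had an estimated correlation of -0.0339 and left 9 members past the threshold. Each scan held arrays of a single group, so this setting cannot separate scan from group. Signal near background limits Mxi1, the dimmer Mxd4 probe and Cdkn2b.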
